A study of Mus musculus with 8 samples.

Results

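The cell cycle and DNA replication genes form a list of 33 genes, chosen by name with earlier results of these data known. Of these, 29 could be measured in thoracic perivascular fat, out of 18782 genes with a probe set of their own. Each gene was read from the probe set that the platform annotation gives to that gene alone, and where a gene had several, from the brightest on average. The tissue came from 4 samples labelled RictoraP2KO and 4 control samples labelled Rictorfl/fl, each hybridised to 1 array. The mice were male, aged 17 to 22 weeks, fasted overnight and killed at 9 am. Rictor is an essential part of mTOR complex 2, a kinase complex of the insulin pathway. The name Rictorfl/fl gives a floxed Rictor allele in the controls. The name RictoraP2KO points to deletion by Cre under the aP2 promoter, that of a fatty acid carrier made in fat cells. The series title places the deletion in brain and fat. The labels do not say whether control mice were littermates, and the samples are whole tissue, so fewer cells of a type and less RNA per cell cannot be told apart. Whether each sample came from a separate animal is not stated, and p-values then measure the spread between these samples.

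Cells that leave quiescence first raise D-type cyclins, which act with CDK4 and CDK6 on RB. E2F factors then induce cyclin E, which activates CDK2, a step that the CDK inhibitor p21 (Cdkn1a) holds back. Origins of replication are loaded with the MCM helicase during G1. DNA is then copied with the help of the clamp PCNA and of enzymes that make deoxynucleotides. A later wave of genes builds the spindle and drives mitosis. Most of these genes are switched off in resting cells, by E2F and RB family proteins at replication genes and by the DREAM complex at the cell cycle homology region (CHR) of mitotic genes. Mature fat cells do not divide, while precursor, endothelial and immune cells of fat tissue can.

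Sequences of 5 promoters are shown because they carry the elements for which both arms of this program are known. They are from RefSeq, build GRCm38.p6, and run from 250 bases before the annotated transcript start to 30 after it, 5′ to 3′ along the gene. Capitals mark each match to the CHR (TTTGAA), the CCAAT box (CCAAT) or an E2F site (TTTGGCGC, TTTCCCGC, TTTCGCGC or TTTGCCGC) on either strand.
Mki67 promoter, chr7:135716350-135716629, minus strand: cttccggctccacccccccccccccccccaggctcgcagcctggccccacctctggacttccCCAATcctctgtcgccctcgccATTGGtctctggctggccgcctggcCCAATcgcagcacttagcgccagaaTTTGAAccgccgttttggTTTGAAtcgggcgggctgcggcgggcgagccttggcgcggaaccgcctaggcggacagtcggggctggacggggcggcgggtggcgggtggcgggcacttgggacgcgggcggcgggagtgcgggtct
Cdk1 promoter, chr10:69352883-69353162, minus strand: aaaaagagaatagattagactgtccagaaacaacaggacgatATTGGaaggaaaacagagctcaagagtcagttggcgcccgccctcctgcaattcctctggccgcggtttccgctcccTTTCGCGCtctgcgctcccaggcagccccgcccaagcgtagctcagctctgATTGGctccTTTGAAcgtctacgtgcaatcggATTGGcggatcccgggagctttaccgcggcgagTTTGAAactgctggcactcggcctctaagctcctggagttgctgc
Ccnb2 promoter, chr9:70421525-70421804, minus strand: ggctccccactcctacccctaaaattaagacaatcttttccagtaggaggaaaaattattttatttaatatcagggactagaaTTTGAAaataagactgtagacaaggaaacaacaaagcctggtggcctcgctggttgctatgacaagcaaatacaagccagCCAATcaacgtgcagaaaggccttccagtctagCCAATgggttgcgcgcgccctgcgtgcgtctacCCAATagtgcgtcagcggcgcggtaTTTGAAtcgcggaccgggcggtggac
Mcm5 promoter, chr8:75109259-75109538, plus strand: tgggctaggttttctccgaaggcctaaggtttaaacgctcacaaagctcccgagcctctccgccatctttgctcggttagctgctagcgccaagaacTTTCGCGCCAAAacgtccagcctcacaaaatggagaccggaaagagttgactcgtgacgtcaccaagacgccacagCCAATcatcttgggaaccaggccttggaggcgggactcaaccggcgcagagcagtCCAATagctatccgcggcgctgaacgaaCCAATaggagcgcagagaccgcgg
Mcm6 promoter, chr1:128359676-128359955, minus strand: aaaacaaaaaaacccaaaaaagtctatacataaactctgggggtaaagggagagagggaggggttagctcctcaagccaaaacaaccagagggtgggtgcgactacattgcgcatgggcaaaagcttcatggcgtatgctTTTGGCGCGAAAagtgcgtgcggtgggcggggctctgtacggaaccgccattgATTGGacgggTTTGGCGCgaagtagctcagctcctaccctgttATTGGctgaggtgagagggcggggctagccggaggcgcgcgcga
The Mki67 promoter held 2 CHR and 3 CCAAT matches, and that of Ccnb2 held the same numbers. The Cdk1 promoter held all 3 kinds of match. In Mcm5 and Mcm6 a pair of E2F matches on opposite strands overlapped, so that they print as 1 run of capitals.

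Of the 33 listed genes, 28 had a promoter in the table, with 31 promoters among them, and each was searched from 250 bases before to 50 after the start. The CHR was found in 14 of 19 promoters of mitotic members (73.7%) and in 1 of 9 promoters of DNA replication members (11.1%), against 17.9% of all 32851 promoters. E2F matches ran the other way, with 1 of 19 promoters of mitotic members (5.26%) and 4 of 9 of DNA replication members (44.4%), against 2.26% of all promoters. All 4 replication promoters with an E2F match belonged to MCM genes, namely Mcm3, Mcm5, Mcm6 and Mcm7. CCAAT boxes were found in 17 of 19 mitotic (89.5%) and 8 of 9 replication promoters (88.9%), against 37.4% of all. Cdkn1a and Ccne1 held no match in these windows. These are matches of letters and no binding was measured. Prc1, Mcm7 and Cdkn1a each had 2 promoters in the table.

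**Figure D1:**
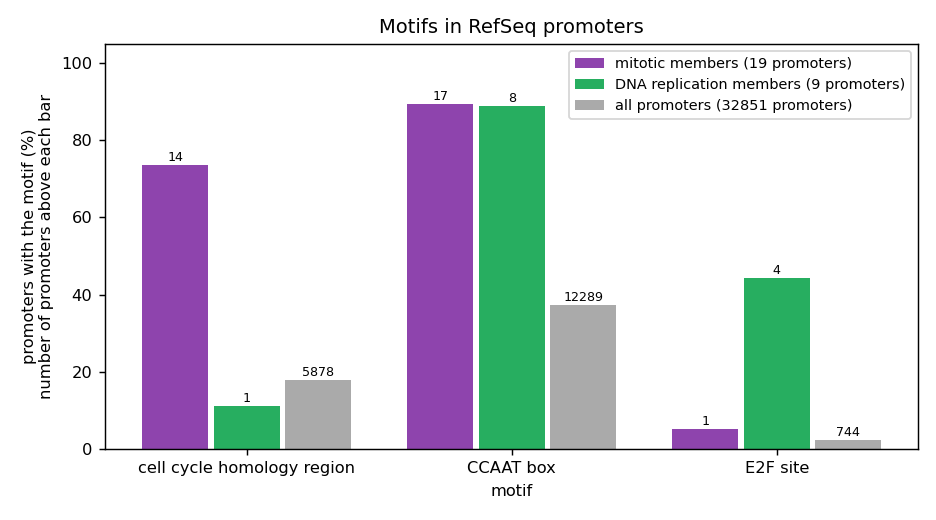
Share of promoters (vertical axis, %) that hold a CHR, a CCAAT box or an E2F site, for mitotic members (19 promoters), DNA replication members (9) and all promoters of the RefSeq table (32851). The CHR is the commoner of the CHR and E2F matches among mitotic members, at 73.7% against 5.26%, and the E2F site among DNA replication members, at 44.4% against 11.1%.

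Values are log2 signals made by the authors with RMA, which corrects background, equalises the distribution of probe values between arrays and summarises the probes of a set. Differences are RictoraP2KO minus control on that scale, with their standard error (SE) and 95% interval from limma, and adjusted p-values are Benjamini-Hochberg values over all 28371 probe sets. The tissue's own markers were present on every array: Adipoq, the adiponectin gene, lay between 10.85 and 11.08, and Ucp1, the uncoupling protein of brown fat, between 11.32 and 12.01. Rictor itself read 6.68 ± 0.08 in arrays labelled RictoraP2KO and 6.54 ± 0.06 in arrays labelled control (SD, n = 4 each). The mean was thus not lower under the knockout label. The groups overlapped on this probe set, and the difference of 0.145 did not pass (SE 0.06, limma adjusted p = 0.6845). Where the probes of that set lie relative to the deleted part was not examined, so the labels are not checked by it, and each direction below rests on them. Control replicate 2 carried lung signal, control replicate 3 neuron signal and RictoraP2KO replicate 2 skeletal muscle signal. These are the 3 arrays with signal of other tissues that some values below leave out. Their omission leaves RictoraP2KO replicates 1, 3 and 4 and, as controls, only replicates 1 and 4. Control replicate 1 had the highest mean of the mitotic members and control replicate 3 the lowest. Values without the 3 arrays therefore also depend on which control arrays remain. Of 5 cardiac muscle markers measured, 3 lay above the array median on all 8 arrays, to differing degrees. The other markers of that list fell below it on some arrays. Leaving out the 3 arrays with signal of other tissues therefore does not remove heart signal. Tnnt2, cardiac troponin T, lay between 6.11 and 9.27 in RictoraP2KO and between 6.45 and 8.66 in control arrays.

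No member of the 29 measured passed the test between the groups. All 29 entered it, since no filter on low values was used. The number with a limma adjusted p under 0.05 was 0 of 29, where 1 probe set of 28371 (0.00352%, that of Myt1l) passed on the whole array. At an unadjusted limma p under 0.05 there were 2 members of 29 (6.9%), Mki67 with a higher mean and Cdkn3 with a lower mean in RictoraP2KO, against 7.27% of all probe sets. The groups were free of overlap in 0 of 29 members, against 4.25% of all probe sets (2.08% higher and 2.17% lower in RictoraP2KO). In a list of 29 genes 0 is near that share. Differences ran from -0.19 to 0.45 with a median of 0.04, and the median over all probe sets was -0.0033. Of the 29, 20 lay above 0 and 9 below, against 48.7% above and 51.3% below over all probe sets. Without the 3 arrays with signal of other tissues, where control replicates 1 and 4 are the only controls, the median was 0.0025. The precision was enough to bound most members: the 95% interval lay within 1.5-fold either way in 27 of 29, a share found in 91.1% of all probe sets, and within 2-fold in all 29, against 98.0%. The exceptions at 1.5-fold were Mki67 and Cdkn1a. These bounds hold for the signal as measured, and the signal of a dim probe set can understate a change in RNA.

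**Figure D2:**
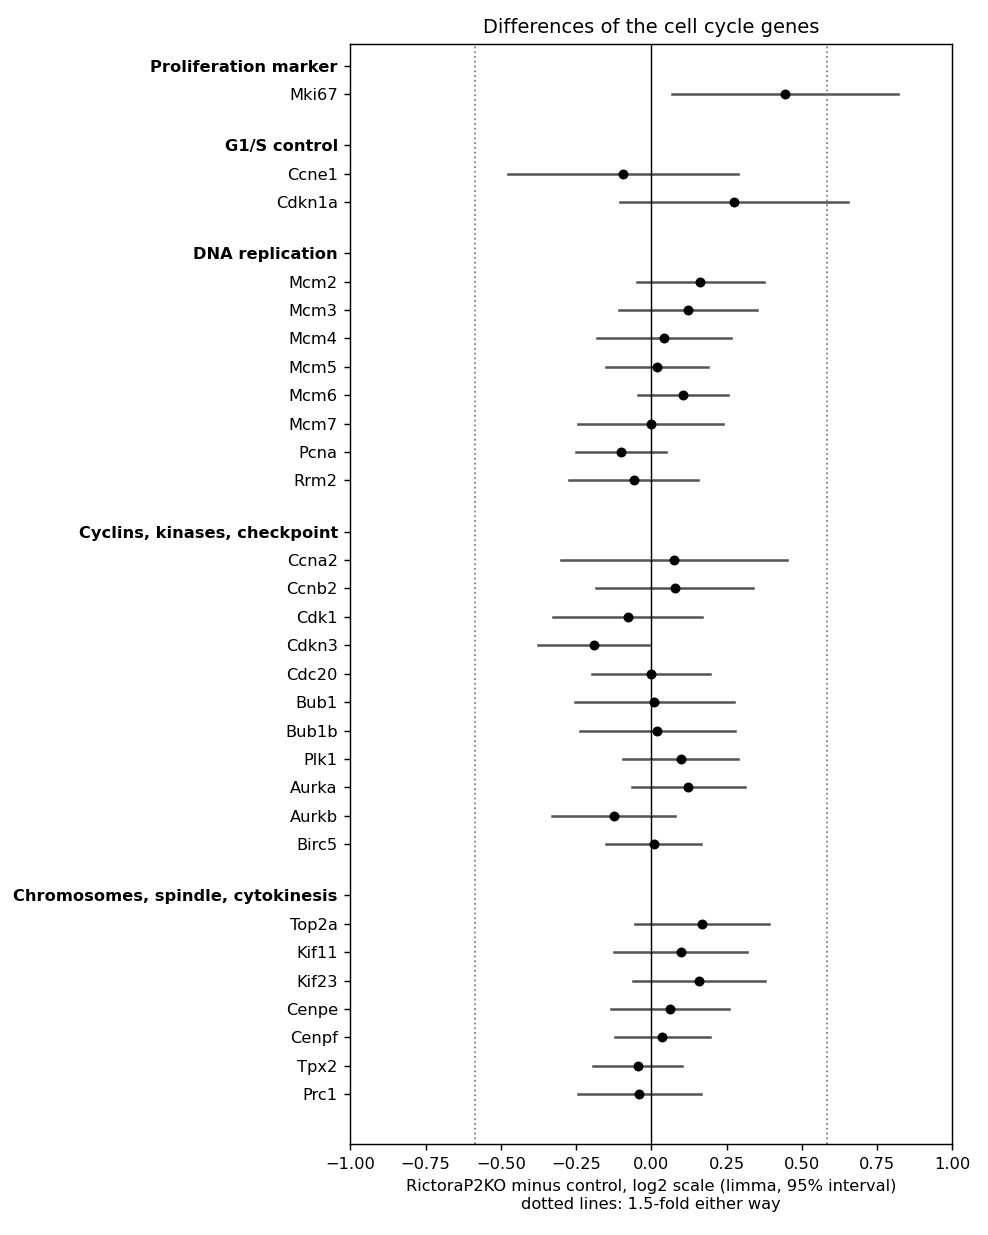
Difference RictoraP2KO minus control on the log2 scale (horizontal axis) for each of 29 genes, with the 95% interval from limma (bars; 4 arrays a group); dotted lines mark 1.5-fold either way. Every point lies between -0.19 and 0.45, and only the intervals of Mki67 and Cdkn1a cross a dotted line.

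Signals of mitotic genes were low in both groups. The median of all probe set means was 3.77, and 5 of the 29 members had a mean above it: Cdkn1a, Ccne1, Pcna, Mcm4 and Mcm7. Each of these 5 exceeded the median of its array in all 8 arrays. Of the 19 mitotic members 0 had a mean above it, and 18 lay below it in all 8 arrays. Just below it were Ccnb2, at 3.76 on average and above the array median in 4 of 8 arrays, Mcm2, at 3.59 and above it in 1 array, and Mcm5, at 3.54. The nearest member above it was Mcm4, at 4.59. Probe sets differ in how strongly they bind their targets, so a position on this scale does not rank the amounts of different transcripts, and detection calls were not used here.

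**Figure D3:**
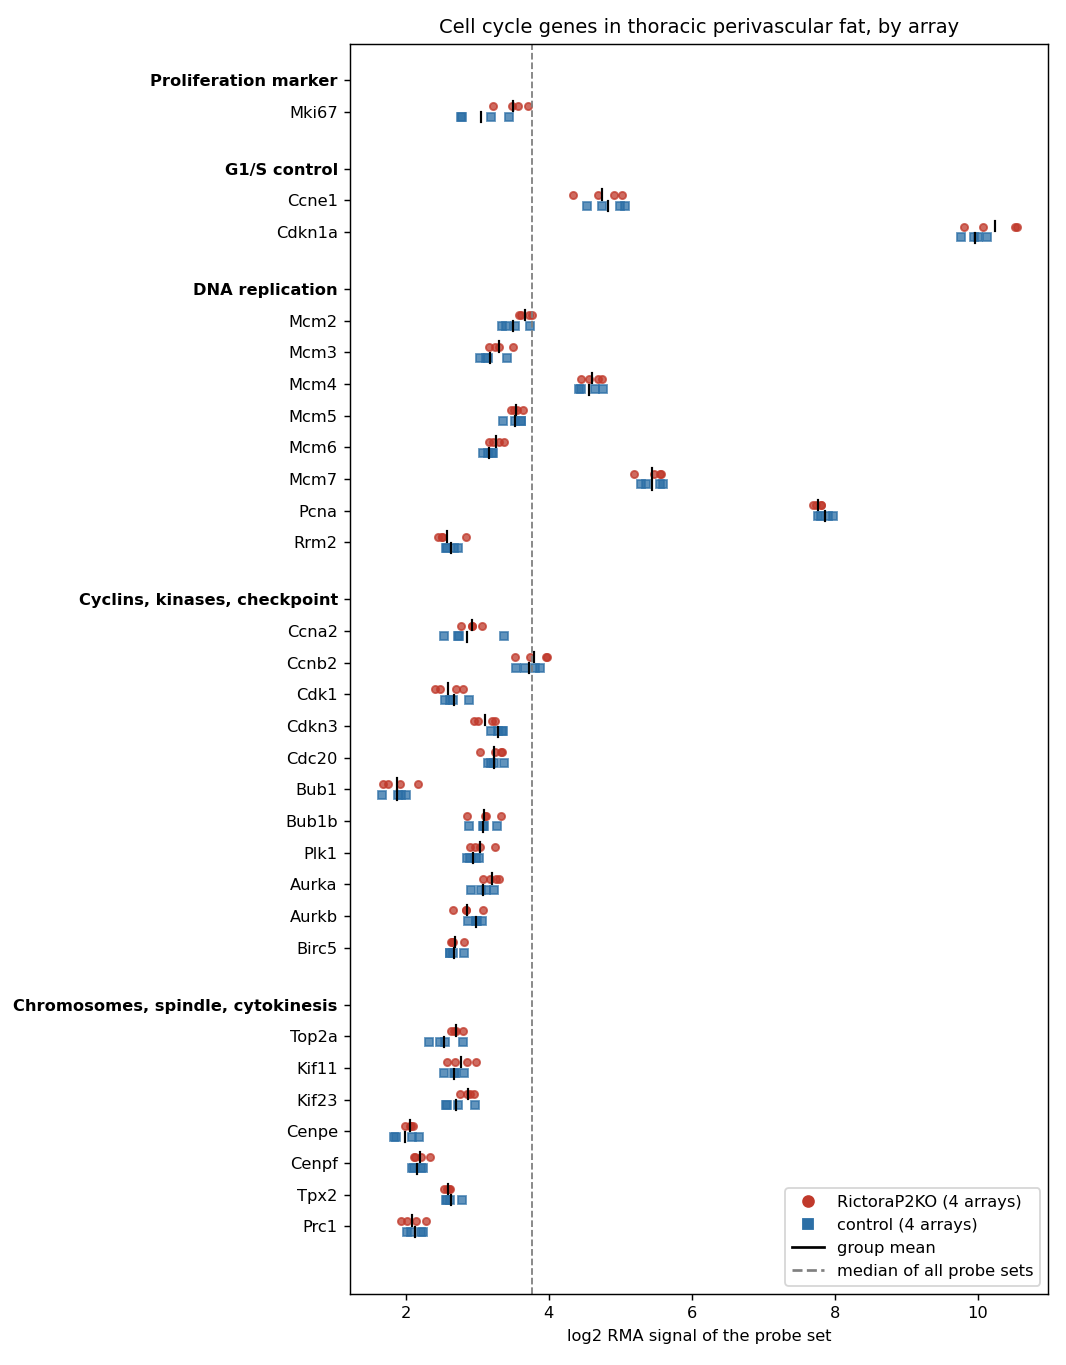
Log2 RMA signal (horizontal axis) of each of 29 genes in 4 RictoraP2KO arrays (circles, upper row of each gene) and 4 control arrays (squares, lower row), with group means (black lines) and the median of all probe sets (dashed line, 3.77). The groups overlap in every gene, and Cdkn1a, Ccne1, Pcna, Mcm4 and Mcm7 lie to the right of the dashed line.

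Mki67 encodes Ki-67, a protein that coats mitotic chromosomes and is the usual marker of dividing cells. It had the largest difference of the members, without passing the test. Its signals were 3.48, 3.71, 3.57 and 3.22 in RictoraP2KO replicates 1 to 4, against 3.45, 3.18, 2.79 and 2.78 in control replicates 1 to 4. Control replicates 3 and 4 were the low arrays, while control replicate 1 stood among the RictoraP2KO values. The difference was 0.45 (SE 0.17, 95% interval from 0.07 to 0.82; limma adjusted p = 0.668). All 8 values lay below the array median. Leaving out 1 array at a time gave differences between 0.35 and 0.58, and leaving out the 3 arrays with signal of other tissues gave 0.31.

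At the entry to S phase, Cdkn1a, which encodes p21 and is a target of p53, had signals of 10.07, 10.52, 9.80 and 10.54 in RictoraP2KO replicates 1 to 4, against 9.996, 9.77, 10.13 and 9.94 in control replicates 1 to 4. RictoraP2KO replicates 2 and 4 were above every control array, and replicates 1 and 3 lay within the range of the controls. The difference was 0.27 (SE 0.17, 95% interval from -0.11 to 0.65; limma adjusted p = 0.767). Over the 8 omissions of 1 array it ran from 0.17 to 0.42, and it was 0.17 without the 3 arrays with signal of other tissues. Ccne1, cyclin E1, had signals of 4.68, 4.33, 4.91 and 5.03 in RictoraP2KO arrays and of 5.00, 4.53, 4.74 and 5.06 in control arrays. Its groups covered nearly the same range, with a difference of -0.09 (SE 0.17).

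Of the 9 DNA replication genes, 8 were measured, and 5 lay above and 3 below 0 with a median difference of 0.03 (-0.0035 without the 3 arrays). The MCM genes encode the subunits of the replicative helicase. Mcm2 had the largest of their differences, 0.16 (SE 0.09; limma adjusted p = 0.753). Its signals were 3.60, 3.72, 3.58 and 3.77 in RictoraP2KO replicates 1 to 4 and 3.74, 3.35, 3.40 and 3.52 in control replicates 1 to 4. As with Mki67, control replicate 1 was the control array that reached the RictoraP2KO range. Differences were 0.12 for Mcm3, 0.10 for Mcm6, 0.04 for Mcm4, 0.02 for Mcm5 and -0.0020 for Mcm7. Control replicate 2 was the lowest array for 4 of these 6 genes. Without the 3 arrays with signal of other tissues, Mcm2 differed by 0.0198, Mcm3 by 0.0195 and Mcm6 by 0.0503, and the largest value was that of Mcm7, at 0.0887.

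Pcna, the clamp that holds DNA polymerase on its template, varied little. It had signals of 7.81, 7.74, 7.69 and 7.80 in RictoraP2KO arrays, against 7.77, 7.90, 7.80 and 7.97 in control arrays. The difference was -0.10 (SE 0.07, 95% interval from -0.25 to 0.05), and the other probe set of this gene gave -0.10 as well. Rrm2, a subunit of ribonucleotide reductase, had signals of 2.85, 2.51, 2.45 and 2.50 in RictoraP2KO arrays and of 2.56, 2.68, 2.58 and 2.73 in control arrays. RictoraP2KO replicate 1 was the highest array for this gene and the other RictoraP2KO arrays were the lowest, for a difference of -0.06 (SE 0.09). Tyms, thymidylate synthase, shares its probe sets with another gene in the annotation and was not analysed here.

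Among cyclins, mitotic kinases and checkpoint genes, 11 of 12 were measured, with 8 above and 3 below 0 and a median difference of 0.01. Cdkn3, a phosphatase that acts on CDKs, had the lowest difference of all members. Its signals were 3.20, 2.96, 3.01 and 3.24 in RictoraP2KO replicates 1 to 4, against 3.29, 3.35, 3.19 and 3.35 in control replicates 1 to 4. RictoraP2KO replicates 2 and 3 were below every control array and the other RictoraP2KO arrays overlapped with control replicate 3. The difference was -0.19 (SE 0.08; limma adjusted p = 0.672).

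Cdk1, the kinase that drives mitosis, had signals of 2.81, 2.70, 2.40 and 2.47 in RictoraP2KO arrays and of 2.62, 2.88, 2.54 and 2.66 in control arrays (difference -0.08, SE 0.11). Its partners differed by 0.08 (SE 0.12) for Ccnb2, cyclin B2, and by 0.07 (SE 0.17) for Ccna2, cyclin A2. Ccna2 stood at 2.92, 3.07, 2.92 and 2.78 in RictoraP2KO arrays and at 3.38, 2.73, 2.54 and 2.75 in control arrays. Control replicate 1 was the highest and control replicate 3 the lowest array for this cyclin, so the control arrays spanned the whole range (SD 0.12 in RictoraP2KO and 0.37 in control, n = 4 each). Its difference was 0.25 without control replicate 1 and -0.19 without the 3 arrays with signal of other tissues. Ccnb1 was not analysed here.

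The remaining kinases and checkpoint genes had small differences of either sign. Aurka, Aurora A of the spindle poles, differed by 0.12 (SE 0.08), and Aurkb, Aurora B of the chromosomal passenger complex, by -0.13 (SE 0.09). Birc5, survivin of the same complex, differed by 0.0075. Plk1, polo-like kinase 1, differed by 0.10, Bub1b by 0.02 and Bub1 by 0.01, both of which serve the spindle checkpoint. Cdc20, which activates the anaphase-promoting complex, averaged 3.24 ± 0.15 in RictoraP2KO and 3.24 ± 0.10 in control arrays (SD, n = 4 each).

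Of 9 genes of chromosome structure, spindle and cytokinesis, 7 were measured, with 5 above and 2 below 0 and a median of 0.06. Top2a, the topoisomerase that untangles chromosomes, had signals of 2.71, 2.79, 2.68 and 2.64 in RictoraP2KO arrays, against 2.80, 2.55, 2.32 and 2.48 in control arrays. Control replicate 1 was as high as the highest RictoraP2KO array and the other control arrays were below all of them. Top2a differed by 0.17 (SE 0.10; limma adjusted p = 0.762), and the other 2 probe sets of the gene, both dimmer, gave 0.01 and 0.02. Kif23, a motor of the central spindle, had signals of 2.89, 2.95, 2.85 and 2.76 in RictoraP2KO arrays and of 2.96, 2.56, 2.73 and 2.58 in control arrays (difference 0.16, SE 0.10). Without control replicate 1 these differences were 0.25 for Top2a and 0.24 for Kif23; without control replicate 3, that of Top2a was 0.0967; and without the 3 arrays with signal of other tissues they were 0.038 for Top2a and 0.0662 for Kif23. As for Top2a, control replicate 1 was the highest array and the other control arrays the lowest. Differences were 0.10 for Kif11, the motor that separates spindle poles, 0.06 for Cenpe, a kinetochore motor, 0.04 for Cenpf, -0.04 for Prc1, which bundles spindle microtubules, and -0.05 for Tpx2, an activator of Aurora A. The dimmer probe set of Kif11 (-0.05) and that of Prc1 (0.03) had the opposite sign. Kif20a and Nusap1 share their probe sets with other genes and were not analysed here.

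Arrays differed from one another within a group. The mean of the 19 mitotic members, each set against its own mean over 8 arrays, was 0.02, 0.07, 0.04 and -0.03 in RictoraP2KO replicates 1 to 4 and 0.13, -0.01, -0.14 and -0.08 in control replicates 1 to 4. The control arrays thus held both the highest and the lowest value. Control replicate 1 was the highest array for 5 of the 19 genes and the lowest for 0, while control replicate 3 was the highest for 0 and the lowest for 6. Without control replicate 1 the number of members at an unadjusted limma p under 0.05 was 5, all higher in RictoraP2KO: Mki67 (0.58), Top2a (0.25), Ccna2 (0.25), Kif23 (0.24) and Mcm2 (0.24). Of all probe sets, 6.86% had such a p in that omission, in either direction. The number of members was 0 without control replicate 4, against 6.18% of all probe sets. It was 1 without RictoraP2KO replicate 2 (6.05% of all), RictoraP2KO replicate 3 (8.35%), control replicate 2 (5.73%) or control replicate 3 (6.85%), and 2 without RictoraP2KO replicate 1 (7.42%) or 4 (6.02%). Without the 3 arrays with signal of other tissues it was 1, that of Aurkb (-0.24), against 4.68% of all probe sets. No member passed the adjusted threshold in any of these omissions. The median range over 8 arrays was 0.40 for the members and 0.39 for all probe sets.

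**Figure D4:**
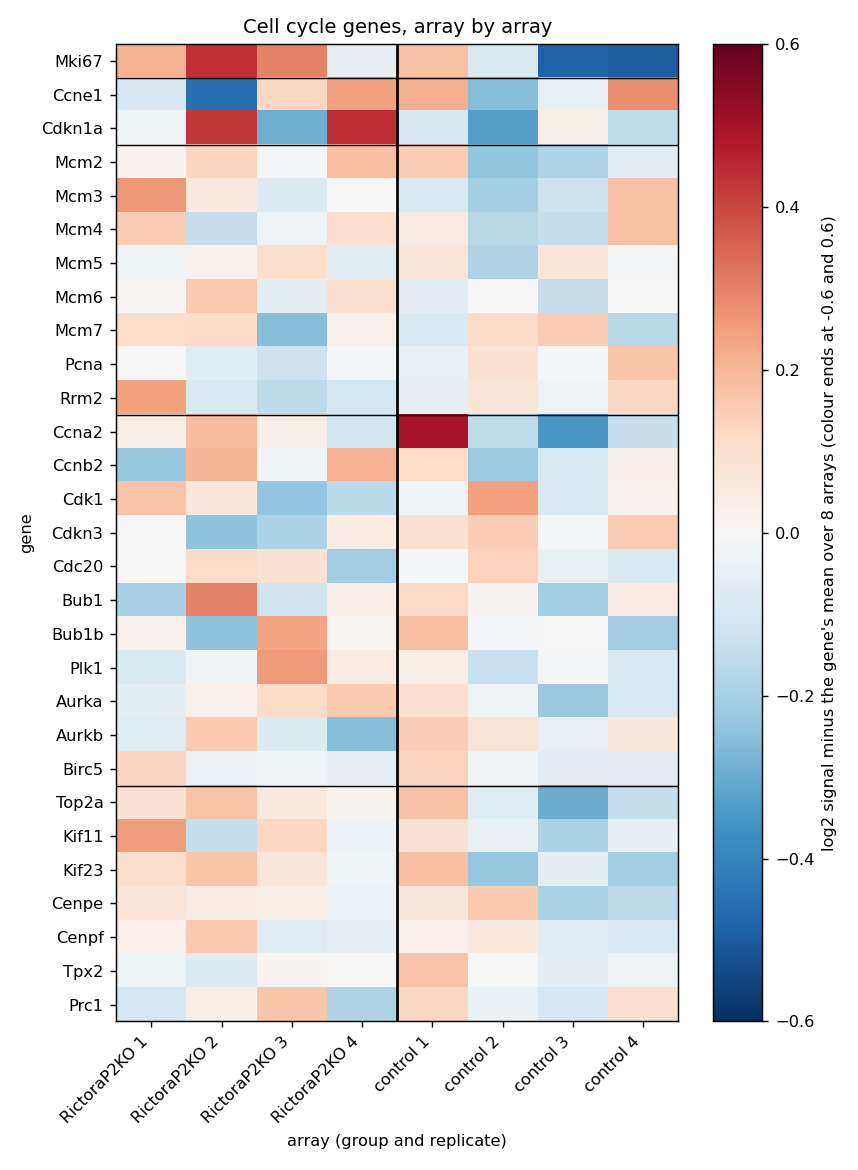
Log2 signal of each of 29 genes minus its mean over 8 arrays (colour, ending at -0.6 and 0.6), with genes in rows by role and arrays in columns, RictoraP2KO left of control. Mitotic genes are mostly red in control replicate 1 and mostly blue in control replicate 3, with list means of 0.13 and -0.14.

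Markers of other cell types were set beside these values, as list means on the same scale. Macrophage markers ran from -0.28 to 0.46 in RictoraP2KO and from -0.32 to 0.07 in control arrays, with 6 of 6 differences above 0. T cell markers ran from -0.14 to 0.52 in RictoraP2KO and from -0.25 to -0.04 in control arrays (6 of 6 above 0), and B cell markers from -0.39 to 1.02 and from -0.45 to 0.09 in the same groups (5 of 5 above 0). The highest T and B cell values belonged to RictoraP2KO replicate 2. That array was also the highest for Mki67 and for skeletal and cardiac muscle markers. Control replicate 1, with the highest mean of the mitotic members, had the lowest B cell value (-0.45) and a T cell value of -0.1. Its macrophage value, 0.065, was the highest of the control arrays. RictoraP2KO replicate 4, the lowest of its group for Mki67, had a T cell value of 0.20, a B cell value of 0.06 and a macrophage value of 0.17. Thymocyte markers, measured because thoracic dissections can include thymus, ran from -0.04 to 0.06 in RictoraP2KO and from -0.13 to 0.07 in control arrays, and Rag2 was at most 1.67 and Dntt at most 2.03 on any array. Endothelial markers ran from -0.02 to 0.11 in RictoraP2KO and from -0.11 to -0.02 in control arrays, fibroblast markers from -0.21 to 0.32 and from -0.22 to 0.02, adipocyte markers from -0.09 to 0.08 and from -0.13 to 0.09, and erythroid markers from -0.18 to 0.21 and from -0.19 to 0.24. The arrays with signal of other tissues stood at 3.24 for lung markers (control replicate 2), 1.199 for neuron markers (control replicate 3) and 1.66 for skeletal muscle markers (RictoraP2KO replicate 2). Cardiac muscle markers stood at -1.47, 1.94, -0.77 and -0.03 in RictoraP2KO replicates 1 to 4 and at 0.43, 0.78, -0.92 and 0.03 in control replicates 1 to 4, highest in RictoraP2KO replicate 2 and lowest in RictoraP2KO replicate 1. The part of these cells in the values of the cell cycle genes was not tested.

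The wider cell cycle program was read from 5 further lists with 143 genes, 135 of them measured. Of these, 0 of 135 passed with adjustment over all probe sets, and 7 of 135 (5.19%) had an unadjusted limma p under 0.05, 2 higher and 5 lower in RictoraP2KO, against 3.85% of all probe sets higher and 3.42% lower. In 6 of 135 (4.44%) the groups did not overlap, 3 higher and 3 lower, against 4.25% of all probe sets. The number at an unadjusted p under 0.05 was 12 without RictoraP2KO replicate 1, where 7.42% of all probe sets had one, 4 without control replicate 2 (5.73% of all) and 4 without the 3 arrays with signal of other tissues (4.68% of all). Among 15 G1 cyclins, CDKs and inhibitors 5 lay above 0, with a median of -0.02, and among 18 RB, E2F and DREAM factors 11, with a median of 0.02. Among 40 genes of origin licensing and replication 14 lay above 0 (median -0.04), among 47 further mitotic genes 23 (median -0.0095) and among 15 p53 targets 7 (median -0.02). Of the p53 targets, a list beside Cdkn1a, 0 of 15 had an unadjusted limma p under 0.05, against 7.27% of all probe sets. In so short a list 0 is near that share.

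The lowest unadjusted p of these lists belonged to Cdk6, a G1 kinase that pairs with D-type cyclins. It had signals of 7.09, 6.84, 7.08 and 6.92 in RictoraP2KO replicates 1 to 4, against 7.26, 7.43, 7.10 and 7.44 in control replicates 1 to 4. Every RictoraP2KO array was below every control array, with RictoraP2KO replicates 1 and 3 next to control replicate 3. The difference was -0.33 (SE 0.10; limma adjusted p = 0.649). Also below 0 were Cdkn2b, the CDK4 and CDK6 inhibitor p15 (-0.26, SE 0.09), Ccnd3, cyclin D3 (-0.26, SE 0.10), and Orc5, a subunit of the origin recognition complex (-0.21, SE 0.08). None passed, with limma adjusted p = 0.668 for each.

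Above 0, Smc4, a core subunit of condensin, had signals of 6.02, 5.99, 5.92 and 6.01 in RictoraP2KO arrays, against 5.67, 5.78, 5.58 and 5.91 in control arrays. The groups did not overlap, with control replicate 4 next to RictoraP2KO replicate 3. The difference was 0.25 (SE 0.08; limma adjusted p = 0.651). Cdc25c, the phosphatase that activates CDK1, differed by 0.16 (SE 0.06) and Ttk, a kinase of the spindle checkpoint, by 0.13 (SE 0.06), both on signals below the array median on all 8 arrays. Ccnd2, cyclin D2, differed by 0.19 (SE 0.10), and by 0.0949 without RictoraP2KO replicate 2. None of these passed.

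**Figure D5:**
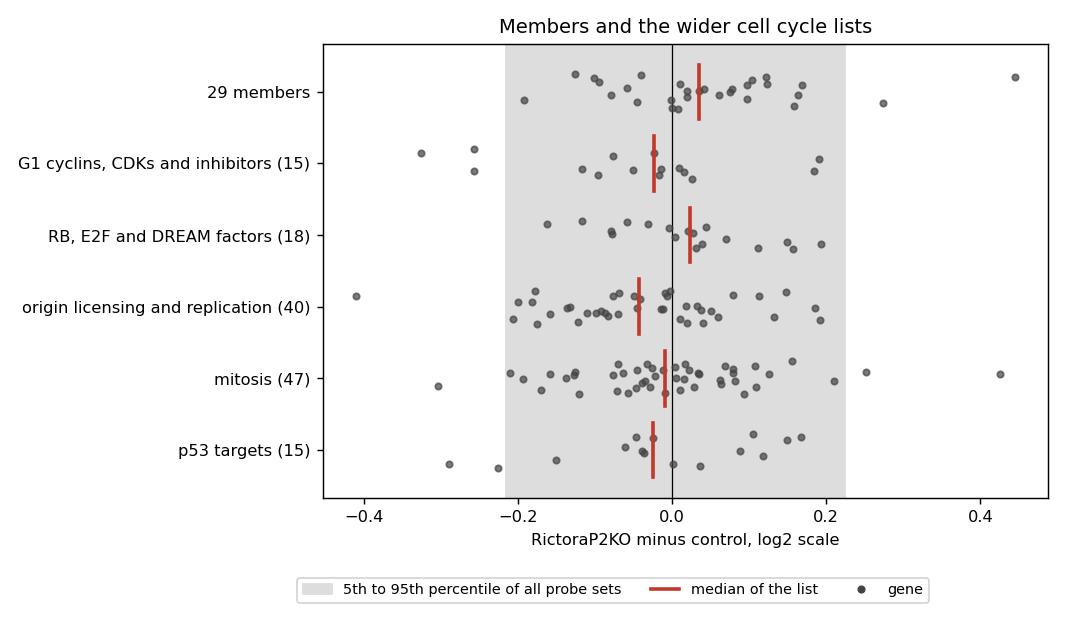
Difference RictoraP2KO minus control on the log2 scale (horizontal axis) of each gene (points) in the 29 members and 5 wider lists, with list medians (red lines) and the 5th to 95th percentile of all probe sets (grey, -0.22 to 0.22). Medians lie between -0.04 and 0.04, and most genes fall within the grey band.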

How the data were processed

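Thoracic perivascular fat was profiled on Affymetrix Mouse Gene 1.1 ST arrays, 1 per sample. The authors deposited a table of log2 RMA values covering 28371 probe sets. The submitters' processing notes name Affymetrix Power Tools 1.10.2. Array medians were 3.76 throughout, so a difference in total RNA output would not be seen. No depth applies to arrays, and their number limits the precision. The platform annotation gave 1 symbol to 21158 probe sets, several to 1881 and none to 5332, and 1 listed gene outside the members was matched by a RefSeq synonym. The fit used limma 3.58.1 under R 4.3.3 on all probe sets, without filter or covariate, with moderated two-sided tests (eBayes), and it was run on simulated data first. Members and lists were chosen with earlier results of these data known. Genes named are all measured members, Rictor, and from the wider lists the 4 higher and 4 lower with the smallest unadjusted p; Pttg1 and Cdc25a were added after their values were seen. Myt1l is named as the probe set that passed, and Adipoq, Ucp1, Tnnt2, Rag2 and Dntt as tissue markers, likewise with their values known. Replicate numbers did not pair the samples by any label, so the block is an alternative. The 20 alternatives were a filter on dim probe sets, renewed quantile normalisation, array weights, limma-trend, centring on the median, robust eBayes, the block, each array left out, 3 arrays left out, other thresholds, gene means and adjustment over named probe sets.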

Additional observations from a re-analysis of the deposited data

Results flagged for a closer look

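In 4 groups of 4 arrays, 1 array stood apart by more of the group's range than Dixon's criterion allows, among 80 groups examined for 40 genes. Of these genes, Pttg1 and Cdc25a were chosen after their values were seen and account for 2 of the 4, so the total is not to be set against chance. Among the 76 groups of the other 38 genes there were 2, where chance gives about 1 group in 20. Pttg1, which encodes securin, the inhibitor of separase, read 3.14 in control replicate 1, where the other control arrays lay between 5.98 and 6.46 and the RictoraP2KO arrays between 5.74 and 5.99. Its difference of 0.43 (SE 0.64) turned to -0.33 without that array. Cdc25a, a phosphatase that activates CDK2, read 5.41 in RictoraP2KO replicate 1, where the other RictoraP2KO arrays lay between 6.36 and 6.43, and control replicate 4 read 5.58. Rrm2 read 2.85 in RictoraP2KO replicate 1, where the others of that group lay between 2.45 and 2.51. Birc5 read 2.81 in the same array, with the others between 2.63 and 2.66.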

How the results depend on the processing

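No member and no gene of the wider lists passed the threshold under any of the 20 alternatives, the lowest limma adjusted p of a member being 0.505. Over all probe sets the number that passed was 1 as analysed, 0 with dim probe sets filtered out, 0 with the replicate block, 0 without the 3 arrays with signal of other tissues, and 0 to 5 over the omissions of 1 array. With a 1.5-fold difference at an unadjusted p below 0.01 as the criterion, 55 of 28371 passed. Of these 0 were members, which is near so small a share. Members at an unadjusted p under 0.05 numbered 2 of 29 as analysed, where 7.27% of all probe sets had one. They numbered 1 without the 3 arrays (4.68% of all) and 0 to 5 over the omissions (5.73% to 8.35% of all). With the dim filter there were 0, but it leaves 5 members and no mitotic one. The share over all probe sets under that filter is not given here. Of the 135 genes of the wider lists 7 had such a p as analysed and 4 without the 3 arrays, beside the same shares of all probe sets. Over the omissions the number was 4 to 12, with 12 without RictoraP2KO replicate 1 (7.42% of all) and 4 without control replicate 2 (5.73% of all). Members above the median of probe sets numbered 5, and 2 against the median of the filtered sets. That number was 5 or 6 over the omissions of 1 array and 6 without the 3 arrays. The replicate block left the members' count at 2 and their median at 0.04. Arrays of the same number correlated between -0.15 and 0.09 in their deviations, and arrays of unlike number between -0.29 and 0.31. Correlations of so few arrays cannot tell whether a number marks anything the arrays share. Of the 29 members 16 kept the sign of their difference under every alternative. Without the 3 arrays the sign turned for Mcm4 (-0.0395), Mcm5 (-0.0265), Mcm7 (0.0887), Ccna2 (-0.1883), Ccnb2 (-0.0932), Bub1 (-0.1778), Birc5 (-0.0140) and Cdc25a (0.0678), and with array weights for Cdc20 (-0.0258), Bub1 (-0.0094) and Cdc25a (0.0130). The cause was not tested. Over the omissions of 1 array the difference crossed 0 for Ccne1 (-0.1958 to 0.0401), Mcm4 (-0.0073 to 0.1067), Mcm5 (-0.0364 to 0.0486), Mcm7 (-0.0571 to 0.0831), Ccna2 (-0.0299 to 0.2511), Cdc20 (-0.0366 to 0.0691), Bub1 (-0.0868 to 0.0772), Bub1b (-0.0560 to 0.1027), Birc5 (-0.0340 to 0.0525), Cenpf (-0.0108 to 0.0632), Tpx2 (-0.0709 to 0.0041), Prc1 (-0.1026 to 0.0134), Cdc25a (-0.2527 to 0.2017), Pttg1 (-0.3342 to 0.7718).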
